A study of Mus musculus with 3 samples.

Results

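Heat shock proteins and their partners were examined in macrophages sorted from the kidneys of 3 C57BL6/J mice, mouse 1 to mouse 3 of a single group. Every mouse had received PBS intravenously 1 h before the kidneys were taken, and no other treatment or genotype is in the series. The data therefore give levels at that time, ratios between genes and the spread between mice. Genes were chosen by symbol alone: the Hsp, Hsf, Dnaj, Bag, Cct, Pdia and Herpud names together with Calr, Canx, Hyou1, Xbp1, Atf4, Atf6, Atf6b, Ddit3 and Ern1. The choice returned 98 of the 14811 listed genes, of which 94 are genes in their own right and 4 are pseudogenes (Hspd1-ps3, Hspa9-ps1, Dnajc19-ps and Cct3-ps1).

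Chaperones bind unfolded stretches of other proteins and keep them from clumping while they fold. Hsp70 proteins do so in cycles of ATP use that are started by J-domain proteins (the Dnaj genes) and ended by nucleotide exchange factors such as the BAG proteins, while Hsp90 acts later on signalling proteins and receptors. Each compartment has its own set. In the cytosol, constitutive members (Hspa8, Hsp90ab1) stand beside relatives that heat shock factor 1 induces under stress (Hspa1a, Hspa1b, Hsp90aa1, Dnajb1). The endoplasmic reticulum (ER) uses Hspa5, Hsp90b1, the lectins calnexin and calreticulin and the disulfide isomerases, under the unfolded protein response, and mitochondria use Hspa9, Hspd1 and Hspe1. Macrophages make large amounts of secreted, lysosomal and membrane proteins, all of which pass through the ER.

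Reads assigned to the listed genes numbered 50951549 in mouse 1, 56718534 in mouse 2 and 50646558 in mouse 3. Levels are normalised read counts, the deposited value less 1, and a level per kb is that count divided by the exon length in kb. All 10 macrophage markers reached 1000 in each of the mice. Most of them were lowest in mouse 2, among them Adgre1 (45042, 16550 and 24426) and Csf1r (16267, 7431 and 18142). Cd74 and Lyz2 were lowest in mouse 3. The summed level of the 7 proximal tubule markers was 42228, 200055 and 17512 in mice 1, 2 and 3, so tubule RNA was present in all libraries and highest in mouse 2, where it was led by Kap. Some markers of other immune cells were present as well. The B cell gene Cd79b was at 227, 3940 and 6359 and the plasma cell gene Sdc1 at 1.61, 377 and 0. The dendritic cell gene Clec9a was at 3421, 1330 and 1462 and Xcr1 at 534, 2.77 and 407, while Flt3 and Zbtb46 did not exceed 16.2. The T cell genes Cd3e and Cd3d were at or near 0, and the neutrophil genes S100a9 and Csf3r did not exceed 19.4. The part of these cells in the results was not tested. Of 6 endothelial markers 1 (Emcn) reached 10 in each mouse. Kdr was at 453, 7.77 and 1345, while Tek, Pecam1, Flt1 and Cdh5 did not exceed 25.0. The mesenchymal gene Dcn was at 906, 0.555 and 154, while Col1a1 and Col3a1 did not exceed 54.4. The part of endothelial and mesenchymal RNA was not tested either. The immediate early and dissociation genes summed to 14391, 4787 and 16742. In bulk samples, fewer cells of a type and less RNA per cell cannot be told apart. Many genes ran from near 0 to above 1000 from mouse to mouse: of the 6219 genes that reached 1000 in any mouse, 18.2% were under 10 in another, and of the 56 chaperone genes that reached 1000 in any mouse, 6 (10.7%) were.

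Chaperone transcripts took 0.609% ± 0.0740 of the reads (SD, n = 3). Of the 98 genes, 59 (60.2%) reached 10 in all 3 libraries, against 44.4% of all listed genes, and 25 (25.5%) reached 1000 in all 3, against 14.7% of all. The median of the mean level was 934 over the 98 genes and 254 over all genes. Hspb8, Hspa12b and Dnajb3 were at 0 in every mouse, where 3 reads, the most that a count of 0 leaves possible by counting error alone, are worth 2.42, 1.66 and 2.11. By the class median of the mean level per kb the chaperonin subunits were highest (1310), followed by the regulators of the unfolded protein response (624), the ER class (475), the mitochondrial class (458) and the constitutive cytosolic class (370). The inducible cytosolic class was at 41.0.

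The highest single genes were ER chaperones. Hsp90b1 (GRP94), the Hsp90 of the ER, had the highest mean level per kb of all 98 genes, at 4150 ± 1864, and its normalised counts were 25030, 10375 and 14799 in mice 1, 2 and 3. Hspa5 (BiP), the Hsp70 of the ER, which also holds the sensors of the unfolded protein response inactive, was at 15357, 7894 and 24558. Both were lowest in mouse 2, by 2.41-fold for Hsp90b1 and 3.11-fold for Hspa5 from the highest mouse.

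The lectin chaperones, which hold newly made glycoproteins in the ER, were close behind. Canx (calnexin) was at 14333, 12421 and 11591, and its highest mouse exceeded its lowest by 1.24-fold. Calr (calreticulin) was at 8866, 2883 and 8911, with mouse 2 apart from both others. Of the disulfide isomerases, which form and shuffle disulfide bonds, Pdia3 was at 13583, 7314 and 7971 and Pdia6 at 4865, 2838 and 7552. Pdia3 works with calnexin and calreticulin on glycoproteins.

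Not all ER members were abundant. Pdia4 was at 291, 301 and 4.23, Pdia5 at 0, 16.1 and 0, and Hyou1, a large Hsp70 relative that releases ADP from Hspa5, at 5.65, 0 and 0. The lower disulfide isomerases and Hyou1 therefore lay far under Pdia3 and Hspa5 in the same libraries. By mean level per kb, the J-domain partners of Hspa5 Dnajb9, Dnajc3 and Dnajb11 lay in between, as did the J-domain gene Dnajb14 (260). The ER J-domain genes Dnajc10 (60.6), Dnajc1 (23.7) and Dnajb12 (7.8) lay below Pdia4 (82.8). In normalised counts Dnajb9 was at 1226, 2022 and 1455, Dnajc3 at 1042, 1956 and 4334, and Dnajb11 at 173, 3454 and 2814. Dnajb9 was even across mice, whereas Dnajb11 was lower in mouse 1 than in both others. Hspa13, at 27.4, 3406 and 4311, was likewise lowest in mouse 1. Of the 17 ER members, 14 reached 10 in all 3 mice and 9 reached 1000.

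**Figure D1:**
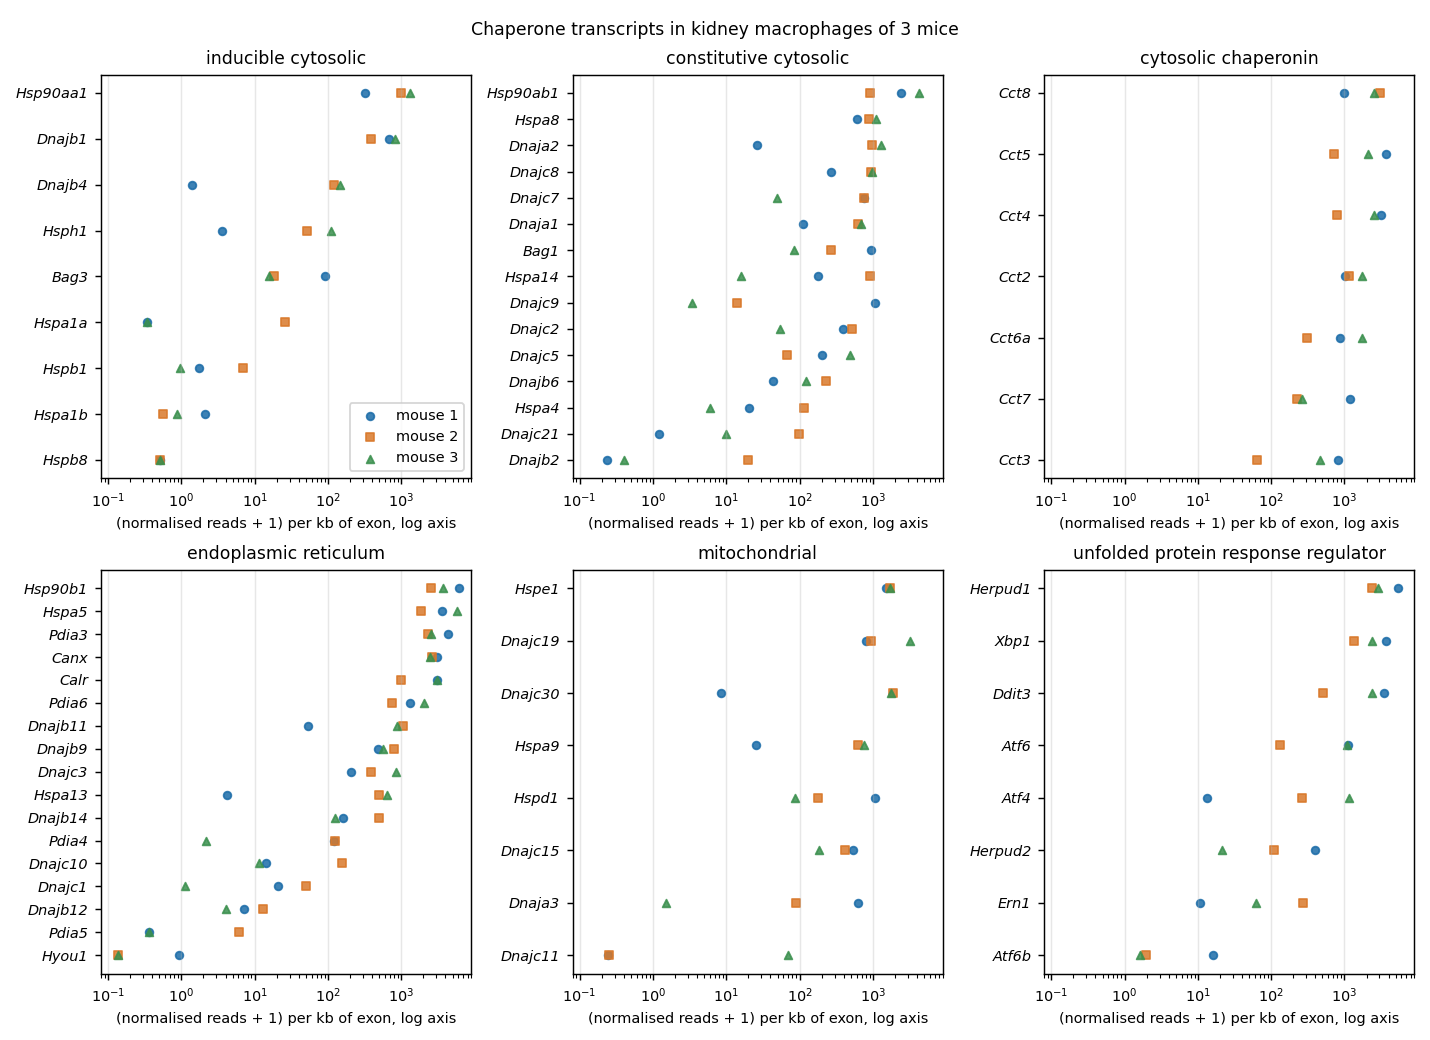
Level of each gene in 6 classes, as (normalised reads + 1) per kb of exon on a log axis, with a symbol for each of the 3 mice. Hsp90b1, Hspa5, Pdia3, Canx and Calr lie together at the top of the ER panel, the 7 chaperonin subunits lie between 63.6 and 3696 per kb, and the inducible panel runs from Hsp90aa1 down to Hspb8 at 0.

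The ER members were set against their promoters, because the ER stress response element is a short sequence through which the ATF6 and XBP1 factors act on this group. RefSeq promoter sequences (GRCm38.p6, 250 bases before to 50 after the gene start) matched 76 of the 98 genes by symbol. The element searched, on both strands, was CCAAT followed after 9 bases of any kind by CCACG. It was found in 0.119% of all 32851 promoters, or 0.137% of all genes with a promoter. Among the 76 matched genes it was found in 6: Hspa5, Hsp90b1, Calr, Canx, Pdia6 and Dnajc3. All 6 belong to the ER class. The related element II, ATTGG and CCACG with 1 base of any kind between them, was in 0.0365% of all promoters (0.0444% of genes). Among the matched genes it was in Herpud1 and Dnajb11. Both motifs hold CCACG and, on one strand or the other, CCAAT. The stretches that carry these matches upstream of the gene start are shown 5′ to 3′ on the strand of the gene, with the match in capitals, because the genes that hold them include 5 of the 6 most abundant ER members.
Hspa5, chr2:34772019-34772049, plus strand: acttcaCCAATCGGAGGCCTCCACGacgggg
Dnajc3, chr14:118937821-118937851, plus strand: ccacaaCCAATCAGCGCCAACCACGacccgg
Pdia6, chr12:17266485-17266515, plus strand: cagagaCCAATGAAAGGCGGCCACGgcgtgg
Canx, chr11:50325794-50325824, minus strand: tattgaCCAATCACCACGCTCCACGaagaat
Calr, chr8:84847069-84847099, minus strand, match on the reverse strand: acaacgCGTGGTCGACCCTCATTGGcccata
Herpud1, chr8:94386371-94386393, plus strand, element II: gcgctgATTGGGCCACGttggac
Hsp90b1, chr10:86705527-86705662, minus strand, 2 matches of which the second is on the reverse strand: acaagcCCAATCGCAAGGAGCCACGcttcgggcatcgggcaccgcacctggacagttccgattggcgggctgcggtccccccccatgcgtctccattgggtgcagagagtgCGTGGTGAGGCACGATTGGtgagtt

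The 7 ER members with either element had mean levels per kb from 475 (Dnajc3) to 4150 (Hsp90b1), with a median of 2391. The 8 ER members with a promoter in the table and no match ranged from 1.94 (Pdia5) to 3066 (Pdia3), with a median of 71.7. The ranges overlapped, and Pdia3 shows that a high level was also found without these letters in the window. The elements were searched because they were already known to act on this group, so matches in it are no independent result. The same holds for the levels of the genes with a match. A match is a description of the sequence, and binding at these places was not measured.

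Each tested gene was next compared with the middle of the detected genes, as the log2 level per kb less the median over all genes tested in that library (limma, adjusted over all 11603 genes with a mean of 10 or more). Of the 98 genes, 81 could be tested, and 30 of them (37.0%) were called above the median, against 21.2% of all genes tested. The median log2 difference of the 81 was 1.40. None was called below the median, against 3.54% of all genes. At an unadjusted p under 0.05, 9 lay below it, and the 17 lowest members were not in the test. Hsp90b1 lay highest (log2 difference 5.59 ± 0.42 SE, adjusted p = 7.39e-12, limma), followed by Hspa5 (5.39 ± 0.44 SE, adjusted p = 4.02e-11) and Herpud1 (5.35 ± 0.51 SE, adjusted p = 9.26e-10), each in 3 of 3 mice. In the ER class 8 of 15 tested members were called. These calls use a limma prior in which the spread depends on the level. With 1 prior for all levels the test called 0 of 11603 genes in either direction, so all 30 calls were lost with it. Leaving out single mice also ended calls in limma: Cct7, Dnajc15 and Dnajc24 without mouse 1 (adjusted p from 0.0532 to 0.457), Dnaja1, Dnajb9, Dnajc3, Dnajc8, Dnajc15 and Dnajc19-ps without mouse 2 (from 0.0802 to 0.487), and Atf6, Cct6a, Dnaja1, Dnajb1, Dnajb9, Dnajc3 and Dnajc8 without mouse 3 (from 0.0502 to 0.459).

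Among the regulators of the unfolded protein response, 4 of 8 were abundant. Herpud1, an ER membrane protein that helps degrade misfolded proteins, was at 12585, 5510 and 6603. Xbp1, whose mRNA the sensor IRE1 splices to make an active factor, was at 11947, 4328 and 7735. Gene counts do not separate its spliced from its unspliced form. Both were highest in mouse 1 and lowest in mouse 2.

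Atf6, a membrane-bound factor that is cut and released under ER stress, was at 10370, 1208 and 9965, and its relative Atf6b only at 42.7, 4.44 and 3.52. Ddit3, which encodes the stress factor CHOP, was at 5867, 859 and 4065. Atf6 and Ddit3 thus shared the low value in mouse 2 that Xbp1 and Herpud1 showed. Of the 7 regulators with a mean of 100 or more, 4 were lowest in that mouse, against 33.1% of all such genes. Most macrophage markers were lowest in mouse 2 as well, and a link between these lows was not tested.

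Ern1, which encodes IRE1, went the other way at 87.1, 2208 and 511. Atf4, the factor whose translation rises when general translation is slowed, was at 30.6, 610.5 and 2682. Herpud2 was at 2285, 632 and 125. These 3 genes differed between mice by 18.2-fold (Herpud2) or more from lowest to highest, and each had its peak in another mouse. Herpud1, Xbp1, Ddit3 and Atf6 were called above the median detected gene (4 of 8 tested, beside 21.2% of all genes tested). Ern1, Atf4, Herpud2 and Atf6b were not.

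Of 25 further genes of ER folding and the unfolded protein response outside the name rule, 22 were tested, 11 were above the median detected gene and none below, beside 21.2% and 3.54% of all genes tested. The highest were Serp1 (log2 difference 4.94 ± 0.45 SE, adjusted p = 4.43e-10, limma), which protects membrane proteins during translocation, Sec61b (4.48 ± 0.72 SE, adjusted p = 1.15e-05), a part of the translocation channel, and Manf (4.43 ± 0.55 SE, adjusted p = 1.32e-07), a secreted ER stress protein. P4hb, the founding disulfide isomerase, was at 3.89 ± 0.64 SE (adjusted p = 1.51e-05). Targets of Atf4 differed among themselves. Ddit3, named above, was called above the median detected gene (4.30 ± 0.73 SE, adjusted p = 2.26e-05, limma), while 3 others had estimates below it that did not pass the test: Asns was at -5.83 ± 2.23 SE (adjusted p = 0.0549), Ppp1r15a at -5.21 ± 2.32 SE (adjusted p = 0.102) and Atf3 at -2.87 ± 2.41 SE (adjusted p = 0.386).

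Among cytosolic chaperones, the constitutive members ranged widely, from a mean level of 7511 for Hsp90ab1 to 28.0 for Dnajb2. Hsp90ab1, the constitutive Hsp90, was at 7200, 2698 and 12634. Hspa8 (HSC70), the constitutive Hsp70 that also uncoats clathrin vesicles, was at 2591, 3781 and 4763. Hsp90ab1 was lowest in mouse 2 and Hspa8 in mouse 1, and Hspa8 varied less, by 1.84-fold from lowest to highest.

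The constitutive J-domain proteins were less even. Dnaja1 was at 966, 5408 and 5864 and Dnaja2 at 76.6, 2874 and 3890, both lowest in mouse 1. Dnajc7, a bridge between Hsp70 and Hsp90, was at 3712, 3643 and 237 and Dnajc8 at 681, 2413 and 2499. Hspa4, an exchange factor for Hsp70, was at 111, 637 and 31.7, Dnajc21 at 4.84, 468 and 46.5 and Dnajb2 at 0, 83.2 and 0.705. These 3 were all highest in mouse 2. Of the 15 constitutive members 12 reached 10 in all 3 mice, but only Hsp90ab1 and Hspa8 reached 1000. Hsp90ab1, Hspa8, Dnajc8 and Dnaja1 were called above the median detected gene (4 of 15 tested, near the 21.2% of all genes).

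The inducible cytosolic members fell into a detected and a nearly silent part. Hsp90aa1, the stress-inducible Hsp90, was at 1245, 3937 and 5183, and Dnajb1 (HSP40), the inducible J-domain partner of Hsp70, at 2172, 1238 and 2618. Both reached 1000 in every mouse. They were the only 2 of 6 tested members called above the median detected gene, beside 21.2% of all genes tested. Hsph1 (HSP110), an exchange factor, was at 25.0, 374 and 804 and Dnajb4 at 11.3, 1053 and 1285. Hsp90aa1, Hsph1 and Dnajb4 shared an order, lowest in mouse 1 and highest in mouse 3. Bag3, which links Hsp70 to autophagy, had the opposite order at 231, 45.5 and 38.8.

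The inducible Hsp70 genes were near 0. Hspa1a was at 0, 74.9 and 0, and Hspa1b at 4.84, 0.555 and 1.41. The small heat shock protein Hspb1 was at 0.806, 6.11 and 0. These levels are uncertain, because the genes share sequence with copies elsewhere: of the 50-base windows of their annotated transcripts, 66.3% for Hspa1a and 62.3% for Hspa1b also occur in another gene's transcript, mostly in each other, and 51.7% for Hspb1 occur in a pseudogene. Reads from such stretches can be lost or split in counting, and how the authors counted them is not given in the sources used here. Hspa8 (74.8%), Hsp90aa1 (58.5%), Hspe1 (44.8%) and Hspd1 (44.8%) are also affected, while Hsp90ab1 shares 4.49% and Hspa5 and Canx share none.

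The summed level of the inducible class was 3690, 6730 and 9930 in mice 1, 2 and 3, beside 14391, 4787 and 16742 for the immediate early and dissociation genes. The class sum was lowest in mouse 1 and the early gene sum in mouse 2. The early gene sum was carried largely by a few genes, such as Dusp1 (6506, 1426 and 1896) and Zfp36 (4172, 773 and 9849). By the median log2 level of the same list (7.98, 8.00 and 7.29) mouse 3 was lowest instead. The part of tissue digestion in the inducible class was not tested.

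Class medians of the log2 level per kb summarise the comparison of inducible with constitutive members. The median of 8 inducible members above 0 lay below that of 15 constitutive members in every mouse, with differences of -6.21, -3.83 and -0.997 log2 units in mice 1, 2 and 3 (mean -3.68 ± 2.61 SD). The direction was the same in 3 of 3 mice but the size ran over a wide range. Leaving out Hspa1a, Hspa1b, Hspa8 and Hsp90ab1 moved the mean to -1.28, and in mouse 3 the inducible median then lay above the constitutive median. That set was chosen for known copies and pseudogenes and not by the shared windows, so Hsp90aa1 (58.5% shared) and Dnajb6 (42.8%) stayed in. The ER median differed from the constitutive median by -0.348, -0.055 and 2.93 (mean 0.84 ± 1.81 SD) and the mitochondrial median by 1.51, -0.0199 and 2.16 (mean 1.22 ± 1.12 SD). For both organelle classes the mice disagreed in sign, so neither class as a whole could be set apart from the constitutive cytosolic class, and the ER difference changed sign without mouse 3 (-0.20). No test of these class differences was made, since the exact sign-flip test considered for them cannot give a two-sided p under 0.25 with 3 mice.

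**Figure D2:**
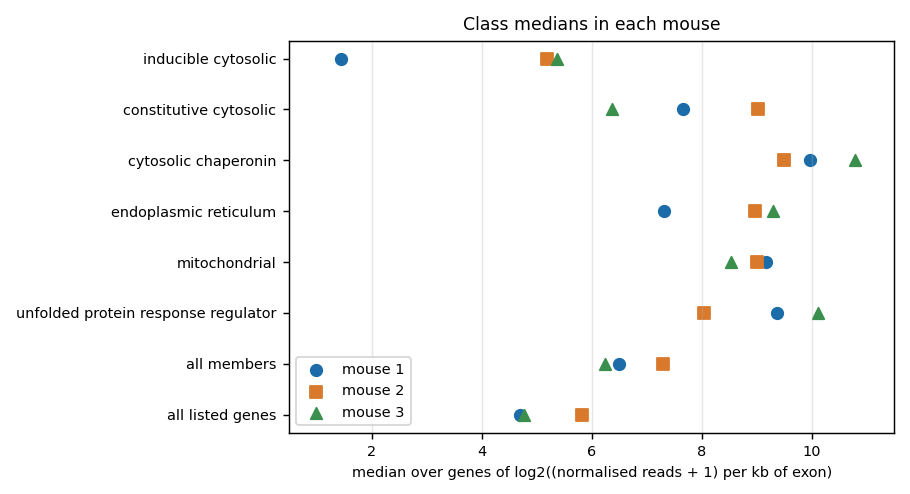
Median over the genes of each class of log2((normalised reads + 1) per kb of exon), with a symbol for each mouse and genes at 0 in every mouse left out. The chaperonin class is high in all 3 mice, at 9.97, 9.50 and 10.78, and the inducible class is at 1.45 in mouse 1 but at 5.18 and 5.37 in mice 2 and 3.

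Ratios within a family were then tested in fits over all genes with the constitutive member as the reference. Hspa5 exceeded Hspa8 in all 3 mice, with a log2 ratio of 2.02 (SE 0.50, adjusted p = 0.00153, limma over 11602 genes). This call was lost without mouse 3 (log2 ratio 1.84, adjusted p = 0.140) and with 1 prior spread for all levels (adjusted p = 0.138). The ratio also fell to 1.06 (adjusted p = 0.0480) when the mean length of the coding transcripts was used in place of the exon length. Hspa9, the mitochondrial Hsp70, was below Hspa8 in 3 of 3 mice without passing the test (-1.88 ± 1.01 SE, adjusted p = 0.0887), by 4.58 log2 units in mouse 1 and by 0.504 and 0.548 in mice 2 and 3.

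The remaining Hsp70 relatives were lower than Hspa8. Hspa1a was below it by 9.20 log2 units (SE 2.37, adjusted p = 0.00214, limma) with 0 reads in mice 1 and 3, and Hsph1 by 4.94 (SE 1.69, adjusted p = 0.0128), each in 3 of 3 mice. The Hspa1a call was lost without mouse 1 (limma adjusted p = 0.106) and without mouse 3 (0.140), and without mouse 2 no read was left to test. That of Hsph1 was lost without mouse 2 and without mouse 3, where no member was called below Hspa8. Hspa13 (-2.94 ± 1.12 SE, adjusted p = 0.0209, lower in 3 of 3 mice) and Hspa14 (-2.62 ± 1.19 SE, adjusted p = 0.0472, lower in 2 of 3) passed the limma test as well, but both calls were lost when mouse 1, mouse 2 or mouse 3 was left out. Over the whole set 8 of 80 members (10%) were above Hspa8, against 5.95% of all genes, and 36 (45%) below it, against 59.6% of all genes. The counts above and below were 6 and 11 without mouse 1, 2 and 0 without mouse 2, and 0 and 0 without mouse 3. Shares of all genes without each mouse are not given here, so these counts show only how calls depend on single mice. With 74.8% of its windows found in copies, the level of Hspa8 is itself uncertain, and so are ratios to it.

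With all 3 mice, neither Hsp90aa1 nor Hsp90b1, the relatives set against Hsp90ab1, was called. Hsp90aa1 was below Hsp90ab1 by 2.92 and 1.68 log2 units in mice 1 and 3 and above it by 0.154 in mouse 2 (log2 ratio -1.48 ± 0.90 SE, adjusted p = 0.119, limma). Without mouse 2 it was called lower (log2 ratio -2.30, adjusted p = 0.0420). Hsp90b1 was above Hsp90ab1 in 2 of 3 mice (0.90 ± 0.70 SE, adjusted p = 0.221). Of 80 members 54 (67.5%) were below Hsp90ab1, against 76.7% of all genes, and none above it at an adjusted or an unadjusted p under 0.05 (limma), against 2.11% of all genes adjusted. The count below was 0 without mouse 1, 35 without mouse 2 and 3 without mouse 3. These counts too stand without the share of all genes, and are no trait of the members.

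**Figure D3:**
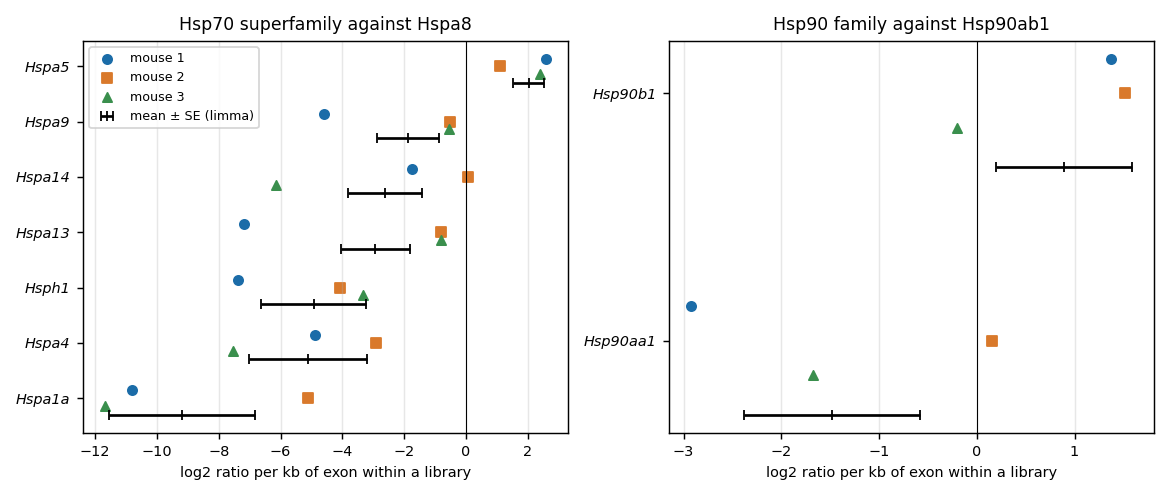
Log2 ratios per kb of exon within a library of Hsp70 relatives to Hspa8 (left) and of Hsp90 relatives to Hsp90ab1 (right), with a symbol for each mouse and the mean ± SE from limma as a bar. Hspa5 lies right of 0 in all 3 mice, while Hsp90aa1 crosses 0 in mouse 2.

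Dnaja2, a constitutive J-domain gene, gave as the reference no call for any gene, member or not (limma, 11602 genes), and 15 members were below it at an unadjusted p under 0.05. Its 76.6, 2874 and 3890 reads in mice 1, 2 and 3 made it an uneven reference. Without mouse 1 the fit called 6 members above it and 17 below, and without mouse 3 it called 10 below. Shares of all genes are not given here for these counts or for the 15 members, so none is a result about the members. Relative to Dnaja2, Dnajb1 was higher by 4.70 log2 units in mouse 1 and lower by 1.32 and 0.678 in mice 2 and 3.

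The cytosolic chaperonin CCT (TRiC) is a double ring of 8 different subunits that folds actin and tubulin. The 7 subunits with rows here all reached 10 in each mouse, and 6 of them (all but Cct3) reached 1000. Cct4 was at 13081, 3318 and 10695, Cct5 at 10224, 2006 and 5734, Cct8 at 2999, 9322 and 7902, and Cct2 at 2569, 2979 and 4501. In 5 of 7 subunits mouse 2 was lowest, whereas Cct8 was highest there.

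Although the subunits are used in equal numbers, their transcripts were not equal per kb. The highest exceeded the lowest by 4.6-fold in mouse 1 (Cct5 against Cct3), by 47.5-fold in mouse 2 (Cct8 against Cct3) and by 9.67-fold in mouse 3 (Cct8 against Cct7). The order of subunits therefore changed from mouse to mouse. These folds depend on the length used. Exon lengths were 6370 bases for Cct3 and 6778 for Cct7, but 2766 for Cct5 and 3088 for Cct8. Their mean transcript lengths were closer, at 1423, 1407, 1349 and 1165 bases. With the mean transcript length Cct8, not Cct3, was lowest in mouse 1. Against the median detected gene 6 of 7 were called above, led by Cct8 (log2 difference 4.60 ± 0.54 SE, adjusted p = 6.48e-08, limma), and Cct3 was the exception (1.83 ± 0.84 SE, adjusted p = 0.112). Tcp1, the remaining subunit, has a name outside the rule and lay at 4.17 ± 0.56 SE (adjusted p = 5.44e-07). Of 16 cochaperones outside the rule, Tcp1 included, 15 were tested, and 3 were above the median detected gene and none below, a share near the 21.2% and 3.54% of all genes tested. The others were Stub1 (3.46 ± 0.73 SE, adjusted p = 0.000448), a ubiquitin ligase for chaperone clients, and Grpel1 (2.54 ± 0.94 SE, adjusted p = 0.0481), the exchange factor of mitochondrial Hsp70.

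In mitochondria, Hspd1 (HSP60) forms a folding chamber and Hspe1 (HSP10) its lid. The genes lie head to head on mouse chromosome 1 and share the stretch between them. The triple heat shock element, TTC, GAA and TTC in turn with 2 bases of any kind between each, was searched on both strands. It was in 0.603% of all promoters (0.662% of genes) and in 4 of the 76 matched genes, namely Hspd1, Hspe1, Dnajb6 and Hsph1. The copies in Hspd1 and Hspe1 are the same 30 bases, read from either strand, with 2 overlapping matches in capitals. They are shown because both genes have this stretch in common while their levels differed.
Hspe1, chr1:55088053-55088082, plus strand: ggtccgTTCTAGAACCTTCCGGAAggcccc
Hspd1, chr1:55088053-55088082, minus strand: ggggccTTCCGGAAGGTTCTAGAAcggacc
Dnajb6, chr5:29735846-29735870, plus strand, match on the reverse strand: ctccgaGAATCTTCCGGAAcgctag

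Hspe1 was at 2232, 2526 and 2507, the smallest spread among the 71 members with a mean of 100 or more (log2 SD 0.10). Hspd1 was at 2858, 467 and 230. Hspe1 was thus almost level across mice, while Hspd1 fell 12.4-fold from its highest to its lowest mouse. The pseudogene Hspd1-ps3, 60.7% of whose windows occur in Hspd1, had the same order as Hspd1 at 857, 34.4 and 4.23. Whether reads were exchanged between Hspd1 and this copy was not tested.

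Hspa9 (mortalin), which pulls proteins through the inner membrane, was at 107, 2671 and 3265, and Dnaja3, its J-domain partner, at 2441, 352 and 4.93. The partners thus ran in opposite order over the mice. The import motor genes Dnajc19 (3262, 3786 and 12766) and Dnajc15 (3432, 2741 and 1181) reached 1000 in all 3. Dnajc30 was at 12.9, 3125 and 2895 and Dnajc11 at 1.61, 1.66 and 734. Hspe1, Dnajc19 and Dnajc15 were called above the median detected gene (3 of 8 tested, beside 21.2% of all genes tested). The pseudogene Dnajc19-ps, with 64.6% of its windows in Dnajc19, was called too, at 918, 669 and 407.

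The heat shock factors each reached their highest level in a different mouse. Hsf1, the master regulator of the heat shock response, was at 52.4, 652 and 7.75, and Hsf2 at 3.23, 32.7 and 938. Neither passed a test against the median detected gene (adjusted p = 0.299 for Hsf1 and 0.213 for Hsf2, limma). Hsf2bp, a binding partner that is no factor itself, was at 0, 60.5 and 0.705. The exchange factors of the BAG family also differed between mice, by 5.95-fold from lowest to highest for Bag3 and 265-fold for Bag5. Bag5 was at 3450, 27.7 and 7349, Bag1 at 1280, 360 and 111, Bag6 at 256, 12.2 and 266, Bag4 at 28.2, 416 and 531, and Bag2 at 11.3, 37.2 and 0. None of the 6 BAG genes was called above or below the median detected gene by limma, beside 21.2% and 3.54% of all genes tested. At an unadjusted p under 0.05 only Bag2 lay below it.

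Of the 10 other J-domain genes, Dnajc4 (817, 2085 and 1842) and Dnajc24 (2491, 663 and 1353) were called above the median detected gene. These were 2 of 8 tested, near the 21.2% of all genes tested. Dnajc24 acts in the modification of elongation factor 2. Dnajc13, which works on endosomes, was at 13655, 3379 and 145, and Dnajc14 at 4590, 10.5 and 9.87. These 2 were led by mouse 1. The remaining 6 (Dnajc16, Dnajc17, Dnajc18, Dnajc25, Dnajc27 and Dnajc28) were below 200 in every mouse.

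Of 13 chaperones known mainly from other tissues, 5 had a mean of 100 or more, and their levels differed widely between mice. In this class 1 gene reached 10 in all 3 mice (Hspa4l, at 4768, 70.5 and 1054). Dnajc12 was at 371, 3807 and 5.64, Dnajb13, a cilium protein, at 2.42, 1087 and 2.11, Hspa12a at 0, 1010 and 0.705, and Hspb11, an intraflagellar transport protein in spite of its name, at 8.87, 902 and 71.2. All 4 had their peak in mouse 2, and 4 of the 5 members of this class with a mean of 100 or more were highest there, against 28.4% of all such genes. Mouse 2 also had the highest proximal tubule sum (200055, against 42228 and 17512), with Lrp2 at 1697, 8594 and 122. The 5 distal nephron markers summed to 250, 5876 and 1140, with Calb1 at 109, 4421 and 133. Another distal marker, Umod, was highest in mouse 3 instead, at 40.3, 598 and 998. The part of tubule RNA in these 4 genes was not tested. The muscle-associated small heat shock proteins Hspb2 and Hspb6 and the testis-type Hspa2 stayed below 30 in every mouse.

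Spread between mice was large for these genes as for others. Over the 71 members with a mean of 100 or more, the median SD of log2(count + 1) was 1.77, against 2.05 over all such genes, and over the 48 with a mean of 1000 or more it was 1.16, against 1.12. The steadiest members were Hspe1 (SD 0.10), Canx (0.16), Dnajb9 (0.37), Cct2 (0.42) and Hspa8 (0.44). The least steady were Hspa12a (5.55), Dnajc14 (5.01), Dnajb13 (4.84), Dnajc11 (4.69) and Dnajc12 (4.64). The ER class had a median SD of 0.98 over its 14 such members and the chaperonin class 1.19 over 7, while the mitochondrial class was at 2.32 over 8. Of the 71 members, 25, 21 and 25 were highest in mice 1, 2 and 3, so no mouse was high throughout.

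**Figure D4:**
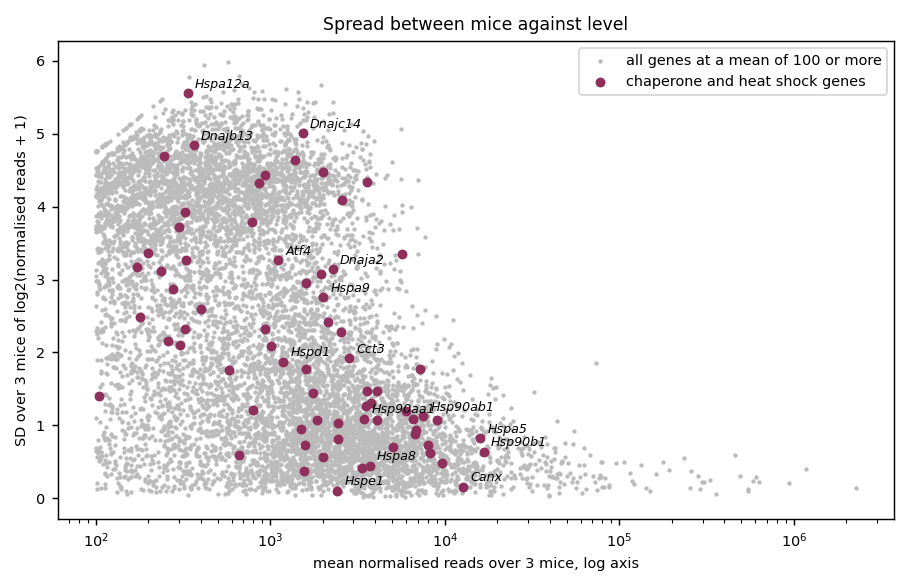
SD over 3 mice of log2(normalised reads + 1) against the mean normalised reads (log axis) for all genes with a mean of 100 or more (grey) and the chaperone genes among them (purple). Hspe1 and Canx lie at the bottom with an SD of 0.10 and 0.16, and Hspa12a and Dnajc14 near the top with 5.55 and 5.01.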

How the data were processed

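RNA was sequenced from sorted kidney macrophages of 3 mice, numbered as different animals by the labels. Digestion took 30 min and cDNA was amplified, as the protocols in the labels state, so reads are not molecules and counting limits cover counting error only. What the authors deposited is a signal, read counts divided by a size factor. HTSeq 0.5.4, DESeq 1.18.0 and mm9 are named by the submitters' processing notes. The aligner, annotation and row filter were not given in the sources used here.

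Each library's lowest deposited value is 1, and after 1 was subtracted 100% of values were whole multiples of 1 read (tolerance 0.05 of a read), worth 0.806, 0.555 and 0.705 normalised reads in mice 1, 2 and 3. Exon lengths came from GENCODE M21 by gene identifier (99.6% of genes, all 98 members). Another build than the authors' was used there and for promoters, so coordinates printed are those of the RefSeq table only. Tests used limma 3.58.1 in R 4.3.3 on log2((count + 1) per kb), a pseudocount of 1, genes with a mean of 10 or more, intercept only, a level trend, Benjamini-Hochberg adjustment over all genes tested, two-sided, threshold 0.05. The fits were tested on simulated data in which few genes lay away from the median. Each gene kept its real spread, but all others were set to a common level per kb, so spread hardly followed level. Estimates were recovered but none passed adjustment. The calls in the real data rest on a spread that depends on level, so the simulation cannot show how reliable they are. A gene that was not called is not shown to lie at the median. Other steps used Python 3.11.15.

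Members, classes, marker lists and tests were chosen with earlier results of these data known. Of 97 genes in the class lists, 14 are not analysed here. Genes named are the 5 highest per kb of each class, all factors and regulators, all inducible members, the family members tested and the 5 most and least variable, with others added after their values were seen. Alternatives were another pseudocount, filter, length, prior and reference, and each mouse left out.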

Additional observations from a re-analysis of the deposited data

How the results depend on the processing

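No paired analysis was possible because the series has a single group. The planned count-model alternative was not run, although whole reads can be derived from the deposited values. The number of members above the median detected gene (30) was 22 to 41 under other filters, lengths, references and pseudocounts, and 25 to 32 when each mouse was left out. With 1 prior spread for all levels in limma it was 0, as for all genes. The number below (0, with 9 at an unadjusted p under 0.05) was 15 with no filter on low values, 3 without division by length and 2 with the mean transcript length, the last an alternative chosen after seeing the data, and 0 without each mouse. Of the 30 calls, 19 held in every alternative other than the single prior. Against Hspa8 the number above (8) was 4 without division by length, 4 with the mean transcript length, 0 with the single prior and 0 to 6 without each mouse, and the number below (36) was 14 at a mean of 100 or more, 22 with the single prior and 0 to 11 without each mouse. Against Hsp90ab1 the number below (54) was 33 with the single prior and 0 to 35 without each mouse, lowest without mouse 1. Against Dnaja2 the number below (0, with 15 at an unadjusted p under 0.05) was 22 with no filter, 10 with the single prior and 0 to 17 without each mouse, and the number above (0) was 0 to 6 without each mouse. Without each mouse the log2 ratio to Dnaja2 of Dnaja1 ran from -0.78 to 0.74, of Dnajb1 from -1.0 to 2.01, of Dnajb9 from -0.74 to 1.96, of Dnajb11 from -0.22 to 0.59 and of Dnajc3 from -0.99 to 1.16, negative without mouse 1 only, and that of Dnaja3 from -6.59 to 0.58, positive without mouse 3 only. Leaving out 1 mouse moved the inducible difference from the constitutive class between -5.02 and -2.41, the ER difference between -0.20 and 1.44, and the mitochondrial difference between 0.74 and 1.83. The number of members at 1000 or more in every mouse (25) was 24 after rescaling to the library totals and 28 to 34 without each mouse. The cause was not tested for these changes, apart from the fewer genes or mice that a setting leaves. Shares of all genes under these settings are mostly not given here. The member counts therefore show only how calls depend on the setting.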
